A study of Homo sapiens with 4 samples.

Results

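Peaks of MYOD and of the histone mark H3K27ac were examined at 10 genes of the sarcomere skeleton, out of 20007 protein-coding genes: the muscle actins ACTA1 and ACTC1, the thin-filament gene NEB, the titin gene TTN, the Z-disc genes ACTN2, TCAP, LDB3 and XIRP1, the M-band gene MYOM1 and the intermediate-filament gene DES. The genes were chosen by name, and each was taken from its annotated start to its annotated end with 10 kb on each side (GENCODE release 44, hg38). A peak belonged to a gene when it touched that stretch by at least 1 bp. The data were 4 peak lists from RD, an established line that grew out of a fusion-negative rhabdomyosarcoma, a soft-tissue tumor of the muscle lineage. RD cells had been infected with a lentiviral vector for a single hairpin that targets SKP2 (shSKP2), the F-box protein by which an SCF ubiquitin ligase recognises its substrates, or for a non-targeting shRNA (shSCR), and each arm gave 1 MYOD and 1 H3K27ac library. All cells were therefore infected RD cells, the SKP2 arm rested on that one hairpin, and no library was repeated. The comparison of shSKP2 with shSCR cells asked how the loss of SKP2 altered MYOD occupancy and active chromatin. With 1 library per group no test between the arms was possible, and every difference given here is one between 2 libraries without a replicate check.

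In striated muscle, actin filaments are anchored in the Z-disc by alpha-actinin, and nebulin runs along them. Titin spans from the Z-disc, where telethonin caps it, to the M-band, where myomesin ties it to the myosin filaments. MYOD is a basic helix-loop-helix factor that binds E-boxes (CANNTG) of muscle genes, and many genes of the contractile apparatus also carry MEF2 boxes and serum-response CArG boxes. H3K27ac marks active promoters and enhancers.

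The lists held 38457 H3K27ac peaks in shSKP2 and 25356 in shSCR cells, and 8457 MYOD peaks in shSKP2 and 5814 in shSCR cells. Read totals are not in the lists. The smallest local background at any summit, a proxy for depth recovered from the fold and the p of each peak, was 1.61 fragments in the shSKP2 and 1.75 in the shSCR H3K27ac library (ratio 0.92), and 1.94 and 1.48 in the MYOD libraries of the same arms (ratio 1.31). The smallest pileup that was called held 8 or 9 fragments in each list, so a stretch without a peak may still have held fragments. The part of these depth differences in the results was not tested. Of 8 genes of skeletal myoblast and muscle identity, 8 carried H3K27ac cover in shSKP2 and 7 in shSCR cells, and 6 carried MYOD peaks in each arm, where the stretches of MYF5 and MYF6 overlap. Of all 20007 genes, 14038 carried H3K27ac cover in shSKP2 and 12037 in shSCR cells, and 6128 carried MYOD cover in shSKP2 and 4376 in shSCR cells.

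The sequences under the MYOD summits are shown because the E-box is what MYOD reads, and 6 separate MYOD sites were called at 5 of the 10 genes. Of the 8 MYOD peaks at these sites, 6 had the palindromic E-box CAGCTG within 100 bp of the summit, against 60.7% of all MYOD peaks in shSKP2 and 64.3% in shSCR cells. CAGCTG lay somewhere within 8 of the 8 peaks (68.7% of all shSKP2 and 70.7% of all shSCR MYOD peaks). These peaks were wider than their lists, and a wider peak has more room for a motif. Their median width was 421.5 bp against 280 bp in shSKP2 and 331 bp against 271 bp in shSCR cells. DES and LDB3 each entered with a peak from both arms that held the same motifs. CAGGTG, searched also as its other strand CACCTG, lay within 100 bp of none of the 8 summits (45.1% of all shSKP2 and 41.7% of all shSCR MYOD peaks). The 121 bases around the summit of each MYOD site outside LDB3 follow, with CAGCTG in capitals. The DES site had a summit in each arm, and only the shSKP2 window is shown.
ACTA1, shSKP2 peak (hg38, chr1:229434743-229434863, plus strand): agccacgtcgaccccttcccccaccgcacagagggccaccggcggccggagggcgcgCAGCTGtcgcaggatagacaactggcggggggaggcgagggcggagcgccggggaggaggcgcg
ACTC1, shSKP2 peak (hg38, chr15:34799581-34799701, plus strand): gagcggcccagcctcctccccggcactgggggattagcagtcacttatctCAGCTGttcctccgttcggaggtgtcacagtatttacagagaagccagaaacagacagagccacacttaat
ACTC1, shSCR peak (hg38, chr15:34802605-34802725, plus strand): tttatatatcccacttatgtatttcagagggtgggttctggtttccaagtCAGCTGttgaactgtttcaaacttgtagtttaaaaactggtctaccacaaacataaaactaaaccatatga
ACTN2, shSCR peak (hg38, chr1:236716302-236716422, plus strand): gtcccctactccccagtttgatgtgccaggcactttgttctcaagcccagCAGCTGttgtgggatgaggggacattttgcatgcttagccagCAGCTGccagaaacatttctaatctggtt
DES, shSKP2 peak (hg38, chr2:219430825-219430945, plus strand): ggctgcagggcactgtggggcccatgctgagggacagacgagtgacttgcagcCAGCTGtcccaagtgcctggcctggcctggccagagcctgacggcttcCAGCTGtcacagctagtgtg
Distances here are to CAGCTG, and other CANNTG boxes were not marked. The ACTA1 summit lay at the centre of its CAGCTG. Both ACTC1 summits lay 7 bp from the centre of theirs, and the shSKP2 summit near DES lay 4 bp from the nearer of its pair of CAGCTG boxes. The ACTN2 window also held a pair of CAGCTG boxes, the nearer 7 bp from the summit. At LDB3 the only CAGCTG of the peak lay 110 bp from the shSKP2 summit and 329 bp from the shSCR summit.

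Promoter sequence was taken from RefSeq (GRCh38.p14) as 250 bases before to 50 after the start, and 8 of the 10 genes were matched, with 11 entries. A CArG box was found in the promoters of 4 of the genes and a MEF2 box in those of 2, against 1.25% and 2.19% of 22198 promoters. CAGCTG was found at 3 of the genes and CAGGTG at 3, against 18.0% and 19.9% of promoters. A gene counted when any of its entries matched, whereas the background counts single promoters. ACTC1 had several entries, and its CAGCTG and CAGGTG lay in an entry other than that of its canonical start. Both strands were searched. These matches describe the letters of the reference sequence and do not show a bound factor. The 50 bases around each CArG or MEF2 box are shown on the strand of the gene, with the box in capitals, since 6 of the 8 genes searched have one of these boxes. TCAP and DES were not searched.
ACTA1 CArG box (GRCh38.p14, chr1:229434162-229434211, minus strand): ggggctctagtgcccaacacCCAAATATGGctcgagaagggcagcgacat
ACTC1 CArG box (GRCh38.p14, chr15:34795629-34795678, minus strand): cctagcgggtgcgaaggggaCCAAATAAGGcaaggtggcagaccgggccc
LDB3 CArG box (GRCh38.p14, chr10:86668434-86668483, plus strand): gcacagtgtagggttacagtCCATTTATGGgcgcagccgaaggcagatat
MYOM1 CArG box (GRCh38.p14, chr18:3219971-3220020, minus strand): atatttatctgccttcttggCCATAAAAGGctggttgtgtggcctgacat
TTN MEF2 box (GRCh38.p14, chr2:178807561-178807610, minus strand): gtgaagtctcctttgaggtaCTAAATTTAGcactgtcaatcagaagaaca
XIRP1 MEF2 box (GRCh38.p14, chr3:39192677-39192726, minus strand): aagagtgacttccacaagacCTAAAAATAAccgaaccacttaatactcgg

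H3K27ac covered more sequence in shSKP2 than in shSCR cells at 7 of the 10 genes and less at 1, ACTN2. Over all protein-coding genes, 66.8% had more and 3.92% had less. TCAP and DES had no H3K27ac peak in either arm, as had 29.2% of all genes. At 3 of the genes, ACTA1, TTN and MYOM1, H3K27ac peaks were called in shSKP2 cells and none in shSCR cells (10.6% of all genes). Summed over the 10 genes, H3K27ac covered 8.7 kb in shSKP2 and 4.25 kb in shSCR cells, a ratio of 2.05, against a ratio of 1.96 over all protein-coding genes. The median cover was 898.5 bp in shSKP2 and 297 bp in shSCR cells, and the median of the differences was 373.5 bp. Over all genes the medians were 949 and 369 bp in the same arms, with a median difference of 400 bp. The share of genes with more H3K27ac and the summed ratio of the sarcomere genes were thus near the background of all genes.

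**Figure D1:**
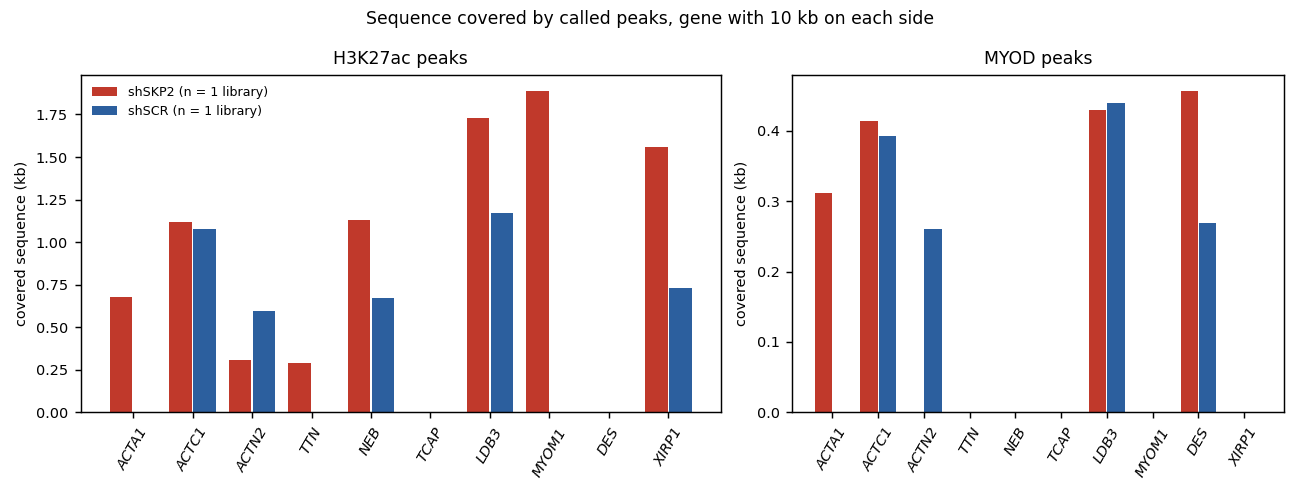
Sequence covered by H3K27ac peaks (left) and MYOD peaks (right) at each of the 10 genes with 10 kb on each side, in kb, with the shSKP2 library in red and the shSCR library in blue (1 library each, so no error bars). H3K27ac cover reached 1.89 kb at MYOM1 in shSKP2 cells against 0 kb in shSCR cells, and was lower in shSKP2 cells only at ACTN2.

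As peaks, the 10 genes held 17 H3K27ac peaks in shSKP2 and 11 in shSCR cells. In shSKP2 cells 10 of the 17 overlapped no shSCR peak (48.6% of all shSKP2 peaks), and in shSCR cells 3 of the 11 overlapped no shSKP2 peak (13.6% of all shSCR peaks). MYOD peaks were found at 5 of the 10 genes in either arm (35% of all genes). MYOD cover was larger in shSKP2 cells at 3 genes (25.2% of all genes) and smaller at 2 (9.8%). Those counts include small differences at ACTC1 (414 bp in shSKP2 and 393 bp in shSCR cells) and LDB3 (429 and 439 bp in the same arms). At LDB3, counted as smaller, the summit held 28 fragments in shSKP2 and 14 in shSCR cells, not scaled for depth. The local background there was 5.35 fragments in shSKP2 and 3.76 in shSCR cells, and the folds were 4.57 and 3.15 in the same arms. There were 4 MYOD peaks in shSKP2 and 4 in shSCR cells, of which 2 in shSKP2 (55.9% of all shSKP2 MYOD peaks) and 2 in shSCR cells (35.9% of all shSCR MYOD peaks) had no counterpart in the other arm. The MYOD peaks covered 1.61 kb in shSKP2 and 1.36 kb in shSCR cells, a ratio of 1.18, against 1.58 over all genes.

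**Figure D2:**
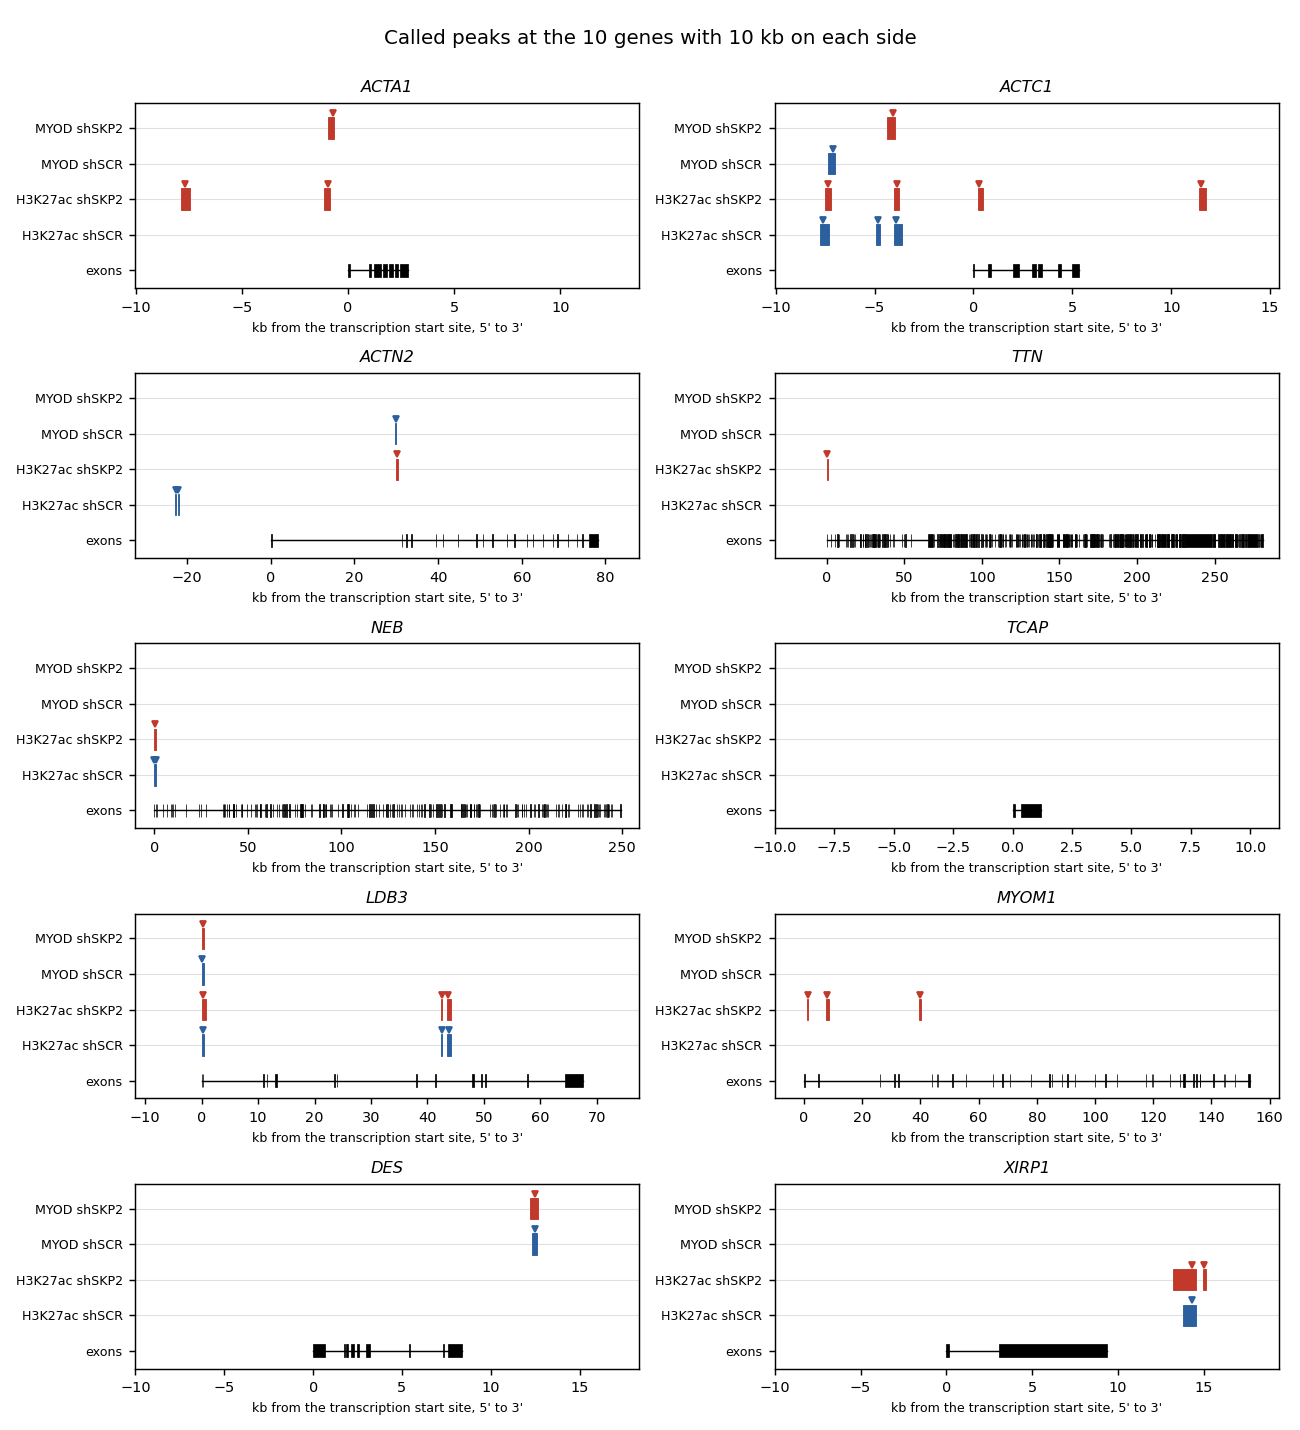
Called peaks along the 10 genes, with the distance from the start of the canonical transcript in kb, 5′ to 3′, on the horizontal axis and the exons of that transcript in black. Red boxes are shSKP2 peaks, blue boxes shSCR peaks, both to scale, and triangles mark the summits. ACTA1, TTN and MYOM1 have H3K27ac boxes in the shSKP2 rows alone, and TCAP has no box in any row.

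ACTA1 encodes skeletal alpha-actin, the main actin of adult skeletal muscle, and lies at chr1:229430365-229434104 on the minus strand. In shSKP2 cells a MYOD peak lay 0.709 kb upstream of its start (chr1:229434737-229435047), with a fold of 7.5 over the local background, a −log10 p of 18.9 and 28 fragments at the summit (exact Poisson 95% interval 18.6 to 40.5, counting error only, as for all such intervals here). Duplicate reads were kept when peaks were called, so such intervals may be too narrow. The shSCR MYOD list had no peak within 42.1 kb of the gene. The MYOD peak of shSKP2 cells was thus among the higher ones of its list, at the 77.6 percentile of fold. An H3K27ac peak of shSKP2 cells (chr1:229434953-229435211) overlapped it by 95 bp, with a fold of 4.04 and 10 fragments (4.8 to 18.4). A second one lay 7.68 kb upstream, in the 3′ UTR of the neighbouring gene NUP133, with a fold of 3.72 and 13 fragments. Both were weak, at the 6.81 and 8.21 percentiles of −log10 p in their list, and the nearest shSCR H3K27ac peak was 19.2 kb from the gene. H3K27ac cover came to 675 bp in shSKP2 and 0 bp in shSCR cells, and neither peak passed a −log10 p of 10.

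ACTC1 encodes cardiac alpha-actin, which is also the actin of developing skeletal muscle (chr15:34790107-34795589, minus strand). Its H3K27ac cover was nearly equal, 1122 bp in 4 peaks in shSKP2 and 1085 bp in 3 peaks in shSCR cells, a ratio of 1.03. With lists cut to equal length the difference turned to less cover in shSKP2 cells, −0.826 kb. The arms shared a pair of upstream peaks. At 3.85 kb upstream the shSKP2 peak had a fold of 3.64 and 54 fragments (40.6 to 70.5), and the overlapping shSCR peak a fold of 3.38 and 40 fragments (28.6 to 54.5). At 7.37 kb upstream the shSKP2 peak had 38 fragments (26.9 to 52.2), against 30 (20.2 to 42.8) in the shSCR peak. The counting intervals of both pairs overlapped. An shSCR peak 4.82 kb upstream, with a fold of 2.56, lay 703 bp from the nearest shSKP2 peak. In shSKP2 cells alone a peak was called in intron 1, 0.268 kb after the start, with a fold of 2.58 and 23 fragments (14.6 to 34.5), and another 11.5 kb after the start, beyond the gene, with a fold of 3.88 and 11 fragments (5.49 to 19.7).

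MYOD was called at different places upstream of ACTC1 in the 2 arms. The shSKP2 peak (chr15:34799516-34799929) lay 4.09 kb upstream with a fold of 3.65, a −log10 p of 6.72 and 17 fragments (9.9 to 27.2). The shSCR peak (chr15:34802537-34802929) lay 7.12 kb upstream with a fold of 4.33, a −log10 p of 8.71 and 19 fragments (11.4 to 29.7). They were 2608 bp apart. Each lay against one of the pair of H3K27ac peaks that both arms shared, so that both MYOD sites were overlapped by H3K27ac in shSKP2 and in shSCR cells.

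NEB encodes nebulin, a giant protein along the thin filament, and had its H3K27ac at the start of the gene (chr2:151485336-151734487, minus strand). In shSKP2 cells 1 peak of 1128 bp (chr2:151733343-151734470) reached a fold of 7.12, a −log10 p of 44.8 and 84 fragments (67.0 to 104). In shSCR cells the same stretch held 2 separate peaks, of 407 bp with a fold of 6.32 and 41 fragments (29.4 to 55.6), and of 262 bp with a fold of 3.6 and 23 fragments (14.6 to 34.5). The counting intervals of the highest summits in the 2 arms did not overlap, while their folds lay close together, the local background being 10.9 fragments in shSKP2 and 5.65 in shSCR cells. NEB cover was 1128 bp in shSKP2 and 669 bp in shSCR cells, a ratio of 1.69. No MYOD peak lay within 196 kb of NEB in shSKP2 cells or within 52.0 kb in shSCR cells.

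TTN encodes titin, the elastic filament of the sarcomere (chr2:178525989-178830802, minus strand). In the 325 kb examined, 1 H3K27ac peak was called, in shSKP2 cells (chr2:178806876-178807163), in intron 1, 0.381 kb after the start of the canonical transcript. It had a fold of 4.56, a −log10 p of 9.51 and 20 fragments (12.2 to 30.9), and covered 288 bp. The nearest shSCR H3K27ac peak lay 46.8 kb from the gene, at the promoter of FKBP7. The nearest MYOD peaks were at the promoter of PRKRA, 75.2 kb away in shSKP2 and 75.4 kb in shSCR cells. TTN cover was 288 bp in shSKP2 and 0 bp in shSCR cells, at the 44.1 percentile of the change over all genes, and the peak did not pass a −log10 p of 10.

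ACTN2, the gene of the Z-disc alpha-actinin that cross-links actin filaments (chr1:236664141-236764631, plus strand), was the one gene with less H3K27ac cover in shSKP2 cells, 306 bp against 594 bp in shSCR cells, a ratio of 0.515 and at the 0.995 percentile of the change over all genes. The peaks of the arms were at different places. In shSKP2 cells a peak lay in intron 1 (chr1:236716508-236716813), 30.2 kb after the canonical start, with a fold of 5.58 and 15 fragments (8.4 to 24.7). In shSCR cells 2 peaks lay 22.8 and 22.1 kb upstream of that start, beside the first base of the annotated gene, with folds of 3.95 and 4.0 and 15 fragments each. None of the 3 passed a −log10 p of 10, all held the same number of fragments and neither arm had a peak where the other had one. The shSCR MYOD list had a peak in intron 1 (chr1:236716276-236716536), with a fold of 7.65, a −log10 p of 15.4 and 20 fragments (12.2 to 30.9), and the shSKP2 MYOD list had none within 36.0 kb of the gene. The shSKP2 H3K27ac peak in intron 1 overlapped this shSCR MYOD site by 29 bp, and the nearest shSCR H3K27ac peak lay 51.6 kb from it.

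LDB3, a PDZ and LIM domain protein that binds alpha-actinin at the Z-disc (chr10:86666785-86736072, plus strand), was the one gene with MYOD and H3K27ac at its promoter in both arms. The MYOD peak covered 429 bp in shSKP2 and 439 bp in shSCR cells. It had a fold of 4.57, a −log10 p of 12.1 and 28 fragments (18.6 to 40.5) in shSKP2 cells, against a fold of 3.15, a −log10 p of 5.0 and 14 fragments (7.65 to 23.5) in shSCR cells. Its width was thus alike in the arms and its shSCR call was close to the threshold, at the 4.15 percentile of that list's −log10 p. The counting intervals overlapped. The H3K27ac peak there was 746 bp long in shSKP2 and 298 bp in shSCR cells, with folds of 6.47 and 5.33 and with 44 (32.0 to 59.1) and 21 (13.0 to 32.1) fragments in the same arms. An overlapping readthrough gene, ENSG00000289258, is annotated across this promoter, and the peaks cannot be assigned to one of the genes.

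LDB3 had another pair of H3K27ac peaks in intron 9, in both arms. The peak 42.5 kb after the start was alike, with a fold of 3.26 and 25 fragments (16.2 to 36.9) in shSKP2 and a fold of 3.55 and 24 fragments (15.4 to 35.7) in shSCR cells. The next one differed more, with 755 bp, a fold of 6.92 and 54 fragments (40.6 to 70.5) in shSKP2 against 685 bp, a fold of 3.78 and 26 fragments (17 to 38.1) in shSCR cells. These last intervals did not overlap. LDB3 cover summed to 1733 bp in shSKP2 and 1169 bp in shSCR cells, a ratio of 1.48.

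XIRP1 encodes Xin, an actin-binding repeat protein (chr3:39183210-39192596, minus strand). Its H3K27ac lay beyond the 3′ end of the gene, 14.3 kb after the start. The peak was 1350 bp long in shSKP2 cells (chr3:39178027-39179376), with a fold of 7.8, a −log10 p of 44 and 76 fragments (59.9 to 95.1). In shSCR cells it was 733 bp long, with a fold of 5.71, a −log10 p of 20.5 and 42 fragments (30.3 to 56.8), so that the intervals did not overlap. The shSKP2 peak was long for its list, at the 93.5 percentile of width. A further shSKP2 peak of 209 bp, with a fold of 3.6, lay 410 bp from the shSCR peak. XIRP1 cover was 1559 bp in shSKP2 and 733 bp in shSCR cells, a ratio of 2.13, and no MYOD peak lay within 36.0 kb in shSKP2 or 94.1 kb in shSCR cells.

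TCAP, the gene of telethonin, which caps titin in the Z-disc (chr17:39665349-39666554, plus strand), had no peak in any of the 4 lists. The nearest H3K27ac peaks lay 11 kb away in shSKP2 cells, in intron 3 of PGAP3, and 21.3 kb away in shSCR cells, at the promoter of PGAP3. TCAP therefore gave no value on which the arms could be compared.

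MYOM1 encodes myomesin, which cross-links myosin and titin in the M-band (chr18:3066807-3219968, minus strand), and had the most H3K27ac cover of the 10 genes in shSKP2 cells, 1892 bp in 3 intronic peaks, with 0 bp in shSCR cells. Its change in bp, not adjusted for length, stood at the 92.6 percentile over all genes. As a share of the 173 kb examined, the shSKP2 cover was 1.09%. That was below XIRP1 (5.31%), ACTC1 (4.4%), ACTA1 (2.84%) and LDB3 (1.94%) in the same arm, and above the other genes. In intron 2, 7.93 kb after the start, the peak was 917 bp long with a fold of 6.79, a −log10 p of 16.9 and 27 fragments (17.8 to 39.3). In intron 5, 39.8 kb after the start, it was 744 bp long with a fold of 6.16, a −log10 p of 19.4 and 36 fragments (25.2 to 49.8). The peak in intron 1, 1.3 kb after the start, was weak, with a fold of 3.0, a −log10 p of 4.89 and 15 fragments (8.4 to 24.7). The nearest shSCR H3K27ac peak was 27.5 kb from MYOM1, at the promoter of MYL12A. The nearest MYOD peaks were 41.9 kb away in shSKP2, at the promoter of MYL12B, and 183 kb away in shSCR cells.

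DES encodes desmin, the intermediate filament that links neighbouring Z-discs (chr2:219418377-219426735, plus strand), and had MYOD without H3K27ac. The MYOD peak lay 12.5 kb after the start in both arms, beyond the gene, where the nearest start was that of SPEG, 3958 bp from the shSKP2 summit. It had a fold of 7.74, a −log10 p of 23.4 and 36 fragments (25.2 to 49.8) in shSKP2, against a fold of 7.94, a −log10 p of 22.8 and 34 fragments (23.5 to 47.5) in shSCR cells. Its width was 457 bp in shSKP2 and 269 bp in shSCR cells. The summits lay 13 bp apart, and the counting intervals of the heights overlapped almost fully. The nearest H3K27ac peaks to DES lay 13.2 kb upstream in shSKP2 cells, with a fold of 6.65, and 13.3 kb upstream in shSCR cells, with a fold of 3.64.

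**Figure D3:**
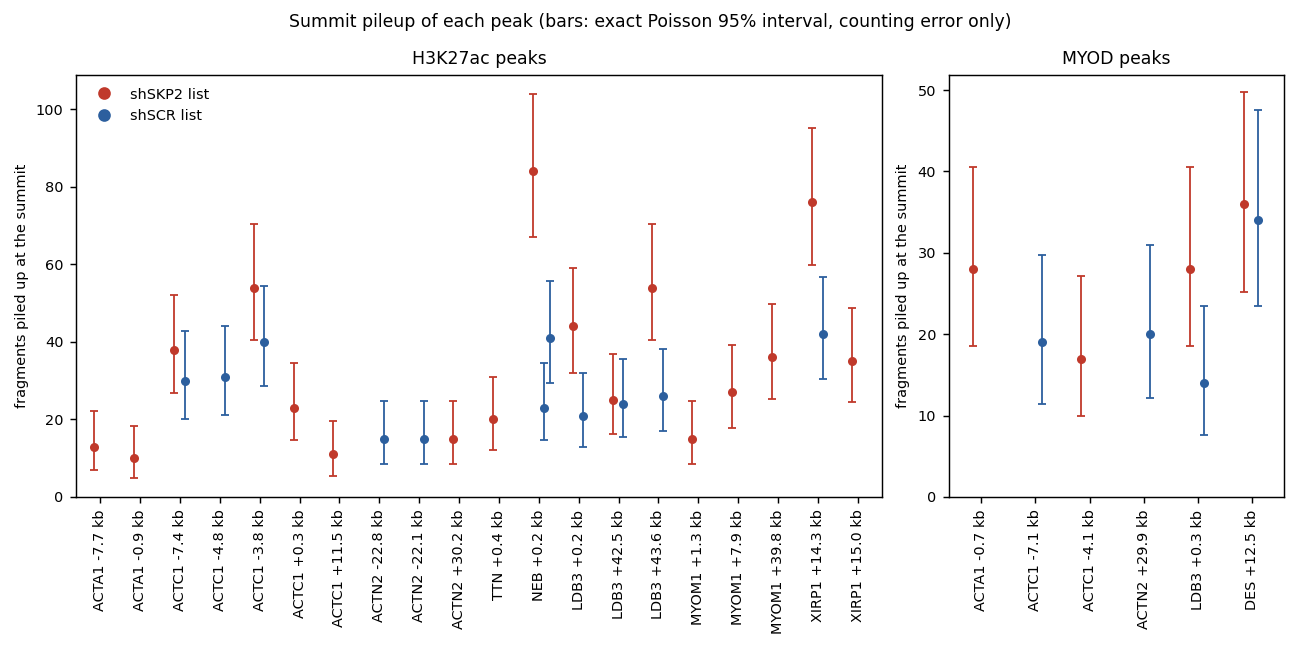
Fragments piled up at the summit of each H3K27ac peak (left) and MYOD peak (right) of the 10 genes, ordered by gene and distance from the start in kb, with shSKP2 peaks in red and shSCR peaks in blue and with exact Poisson 95% intervals that cover counting error only; a missing point means that no peak was called in that arm. The shSKP2 points are highest at NEB (84) and XIRP1 (76), and the MYOD points at DES (36 in shSKP2 and 34 in shSCR) lie level.

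Set together, 5 of the 6 MYOD sites were overlapped by an H3K27ac peak in shSKP2 cells (83.3%, Wilson 95% interval 43.6 to 97.0) and 3 of the 6 in shSCR cells (50%, 18.8 to 81.2). These intervals treat the 6 sites as independent, although both ACTC1 sites belong to the same gene. With 1 library per arm they measure no spread between libraries and do not test the arms against each other. A site entered both shares whichever arm its MYOD peak was called in. Over all 10538 MYOD sites the shares were 51.7% in shSKP2 and 34% in shSCR cells. The sites that differed were those of ACTA1 and ACTN2, each overlapped in shSKP2 cells alone. At ACTA1 the MYOD peak itself was called only in shSKP2 cells, and at ACTN2 only in shSCR cells. The arms did not differ in this count with lists of equal length or with a reciprocal overlap of 50%. Within 500 bp of the canonical start, H3K27ac peaks were called at ACTC1, TTN, NEB and LDB3 in shSKP2 cells and at NEB and LDB3 in shSCR cells (47.0% and 36.8% of all promoters in the same arms). MYOD peaks lay within 500 bp of the start of LDB3 in both arms and of none of the other 9 genes (8.11% of all promoters in shSKP2 and 4.65% in shSCR cells).

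The partners of these genes were followed in a list of 34 other genes of the Z-disc, M-band, thin filament and titin complex. H3K27ac cover was larger in shSKP2 cells at 27 of the 34, smaller at 1, and absent from both arms at 6, against 66.8% larger and 3.92% smaller over all genes. It summed to 53.2 kb in shSKP2 and 22.4 kb in shSCR cells, a ratio of 2.38, with a median difference of 617.5 bp. The stretches of MYOZ1 and SYNPO2L overlap, so that sequence they share entered this sum under both genes, as shared sequence also did in the sums over all genes. The differences of most size were those of PDLIM5, a PDZ and LIM protein of the Z-disc (4107 bp in shSKP2 and 243 bp in shSCR cells), of SYNPO2, the actin-bundling myopodin (5561 and 1967 bp in the same arms), and of PDLIM3, an alpha-actinin-associated LIM protein (3616 and 382 bp in the same arms). ANKRD1, an ankyrin repeat protein that binds titin, was the one with less, 1290 bp in shSKP2 and 1558 bp in shSCR cells. MYOD cover went both ways, larger in shSKP2 cells at 11 and smaller at 10 of the 34, against 25.2% and 9.8% of all genes.

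**Figure D4:**
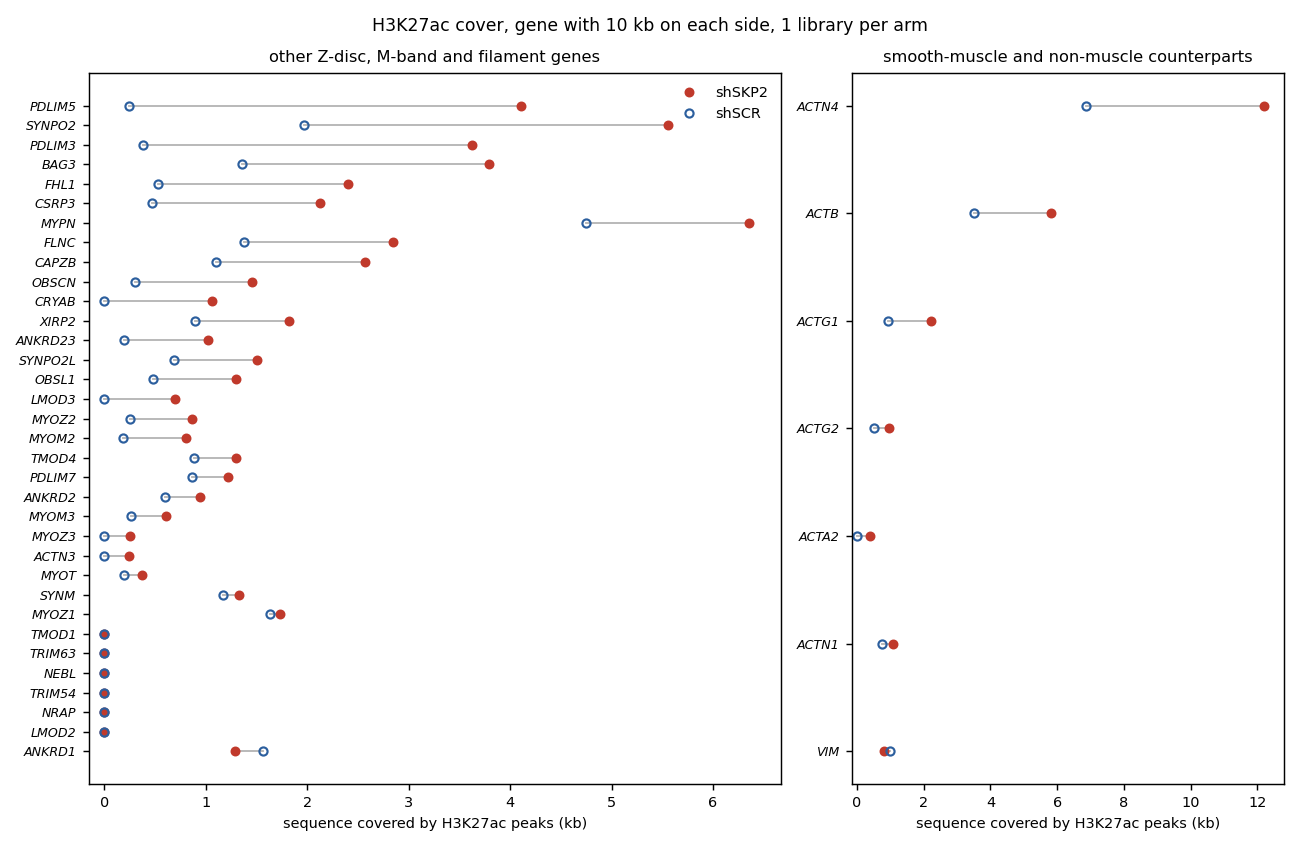
H3K27ac cover in kb of the 34 other Z-disc, M-band and filament genes (left) and of the 7 smooth-muscle and non-muscle counterparts (right), with shSKP2 as filled red points and shSCR as open blue points joined by a grey line, 1 library each. Cover was larger in shSKP2 cells at 27 of the 34 and at 6 of the 7, with ANKRD1 and VIM as the exceptions that had less.

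The smooth-muscle and non-muscle counterparts of the same proteins had more H3K27ac cover in shSKP2 cells at 6 of 7 genes, against 66.8% of all genes. ACTN4 and ACTN1, the non-muscle alpha-actinins, had 12177 and 1093 bp in shSKP2 cells, against 6866 and 751 bp in shSCR cells. ACTB and ACTG1, the cytoplasmic actins, had 5822 and 2226 bp in shSKP2 cells, against 3521 and 936 bp in shSCR cells. ACTG2 and ACTA2, the smooth-muscle actins, had 950 and 375 bp in shSKP2 cells, against 510 and 0 bp in shSCR cells. VIM, the gene of vimentin, the intermediate filament that precedes desmin in myogenic cells, had 802 bp in shSKP2 and 985 bp in shSCR cells. The ratio of the summed cover was 2.05 for the 10 sarcomere genes, 1.73 for these 7 genes and 1.96 over all genes, and whether those ratios differ was not tested.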

How the data were processed

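The deposited files were 4 narrow-peak lists, 1 for each library. Per the study's methods, the authors fragmented fixed chromatin with micrococcal nuclease, added Drosophila chromatin as a spike-in, aligned reads to GRCh38 with BWA (version 0.7.17), called peaks in each library against input with MACS3 and removed peaks in an exclusion list. Per the study's reporting summary, duplicate reads were kept in the peak calls, so fragments at a summit need not be independent counts. Tool names came from the submitters' processing notes. The sources used here do not say whether peak calling used the spike-in, so cover, fold and pileup do not measure absolute occupancy. Each peak carried positions, a fold over the local background, a −log10 p, a −log10 q and a score, the −log10 p times 10 truncated, all as deposited by the authors. The stated p threshold equals a −log10 p of 5, but 2.41 to 4.13% of the deposited peaks lay under it and were kept.

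Each domain ran from 10 kb before to 10 kb after a gene (GENCODE release 44), for 20007 protein-coding genes. Cover was the sequence of a domain under peaks. A peak was shared when a peak of the other arm overlapped it by at least 1 bp, and MYOD sites were the merged union of both lists. Pileup and background at each summit were solved from the fold, as (pileup + 1)/(background + 1), and the Poisson p, and gave whole numbers for 100% of peaks within 0.001 of the −log10 p, after a test on simulated data. One peak on another contig was left out of each H3K27ac list. Python 3.11.15, numpy 2.4.6, pandas 2.3.3, scipy 1.17.1 and matplotlib 3.10.9 were used.

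Groups came from the sample titles. No test was run, since each group had 1 library. The genes named were all 10 genes, the 3 largest changes in each direction of the list of 34 partners where that many existed, all 7 counterparts, and neighbours with a peak at their promoter. NUP133 and SPEG were named after their values were seen, to place a peak. Markers of other cell types were to be named only where a peak lay at their promoter. GATA4, MYL7, TNNI3 and KRT8 were named without one. The genes and lists were chosen with earlier results of these data known. The alternatives were other −log10 p thresholds, lists of equal length, other flanks, and a reciprocal overlap of 50% or a distance of 1000 bp for shared peaks.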

Additional observations from a re-analysis of the deposited data

How the results depend on the processing

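No paired analysis was possible because each group has 1 library and no replicate numbers. H3K27ac cover was larger in shSKP2 cells at 7 genes as reported, at 7 with a −log10 p of at least 5, at 4 with at least 10, at 5 with lists of equal length, at 5 without flanks and at 9 with 25 kb flanks. Genes with less cover numbered 2 with lists of equal length. The summed difference, 4.45 kb as reported, was 4.22, 4.28, 2.45, 3.41 and 10.6 kb under those alternatives in that order. Shares over all genes are given here for the reported setting alone, as 66.8% with more H3K27ac cover. The counts and sums under the alternatives therefore have no background of all genes beside them. ACTC1 changed sign, from 0.037 kb as reported to −0.127 kb at a −log10 p of at least 10 and −0.826 kb with lists of equal length. The ACTA1 difference was 0 kb at a −log10 p of at least 10, with lists of equal length and without flanks, that of TTN 0 kb at a −log10 p of at least 10, and that of XIRP1 0 kb without flanks. The ACTN2 difference, −0.288 kb as reported, was 0 kb at a −log10 p of at least 10 and −0.035 kb without flanks. The MYOM1 difference, 1.89 kb as reported, was 1.66 kb at both thresholds and with lists of equal length. The LDB3 difference, 0.564 kb as reported, was 1.2 kb at a −log10 p of at least 10, 0.332 kb with lists of equal length and 1.91 kb with 25 kb flanks, and that of NEB, 0.459 kb as reported, was 0.721 kb at a −log10 p of at least 10. With 25 kb flanks the differences were 1.38 kb at ACTA1, 0.806 kb at ACTC1 and 1.88 kb at XIRP1, and without flanks that of ACTC1 was 0.241 kb. MYOD sites overlapped by H3K27ac numbered 2 more in shSKP2 than in shSCR cells as reported, 0 more at a −log10 p of at least 10, with lists of equal length or with a reciprocal overlap of 50%, and 1 more without flanks. Genes with more MYOD cover, 3 as reported, numbered 2 with lists of equal length, 0 without flanks and 2 with 25 kb flanks. MYOD peaks called in shSKP2 cells alone, 2 as reported, numbered 1 with lists of equal length, 0 without flanks and 4 with 25 kb flanks. Those called in shSCR cells alone, 2 as reported, numbered 1 at a −log10 p of at least 10, 1 without flanks and 3 with 25 kb flanks. Causes of these changes were not tested beyond what each alternative removes or adds. One library per group and summits of 10 to 84 fragments limit what the peaks can show.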

Other observations

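Marker genes of other cell types in the same libraries were examined as counts. Among 9 cardiac genes, H3K27ac cover was called at 2 in shSKP2 and 4 in shSCR cells. Nearly all of it lay in the stretch of TNNI3, named after its values were seen, with 4925 bp in shSKP2 and 3601 bp in shSCR cells. No peak of either arm lay within 500 bp of the TNNI3 start, so this cover cannot be assigned to TNNI3. GATA4 had 276 bp in shSKP2 and 254 bp in shSCR cells, NKX2-5 had 0 and 268 bp in the same arms, and MYL7 had 0 and 293 bp. Among 7 smooth-muscle genes, of which ACTA2 and ACTG2 are also among the counterparts above, 4 had H3K27ac cover in shSKP2 and 3 in shSCR cells. None of the 7 carried MYOD, where 35% of all genes did in either arm. Among 4 epithelial genes, 4 had H3K27ac cover in each arm, but the stretches of KRT8 and KRT18 overlap and are not independent. Among 5 genes of blood and endothelium, 2 had H3K27ac cover in each arm, and among 4 neuronal genes, 3 had it in each arm. Of all 20007 genes, 14038 had it in shSKP2 and 12037 in shSCR cells. Within 500 bp of the start, H3K27ac peaks were called at KRT18 and TUBB3 in both arms, at SMTN in shSKP2 and at NKX2-5 in shSCR cells. The other markers of other cell types had none there, where 47.0% of all promoters did in shSKP2 and 36.8% in shSCR cells. Summed cover in shSKP2 over shSCR cells was 3.51 for epithelial, 2.87 for smooth-muscle and 1.86 for neuronal genes. It was 1.52 for blood and endothelium and 1.18 for cardiac genes. The ratio was 1.7 for skeletal myoblast and muscle identity genes and 1.96 over all genes. Whether these ratios differ was not tested.

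With 25 kb on each side in place of 10 kb, H3K27ac cover was found around both genes that had no H3K27ac peak. The difference between shSKP2 and shSCR cells was then 1.43 kb at TCAP and 0.842 kb at DES. In both arms the peak nearest to TCAP lay in PGAP3, so this cover cannot be assigned to TCAP. No share over all genes is given for this flank.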
